A study of Homo sapiens with 4 samples.

Results

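PARP9, PARP10, PARP12, PARP14, DTX3L, SAMD9 and SAMD9L are 7 genes known to be induced by interferon, and their mRNA levels were followed in UM-UC-3 cells, an established human bladder cancer cell line. They were chosen by symbol, with their response in these same libraries already known, so their levels and changes are a description and carry no test. All 7 were found among the 27629 genes listed in the 4 deposited tables together, and each was listed in every table. The cells received 75 nM siRNA for 48 hrs: control siRNA, si-hnRNPK (against HNRNPK, which encodes an RNA- and DNA-binding protein), si-lncRNA-LBCS (labelled as against a long non-coding RNA) or si-PTBP1 (against PTBP1, which encodes a splicing repressor). Each knockdown used a mixture of 2 siRNAs, the control used a single sequence. Every comparison was therefore 1 library against 1 library, without replicates, and no p-value is given.

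Interferons act through JAK kinases and STAT proteins, and a complex that contains STAT2 and IRF9 binds the interferon-stimulated response element in the promoters of its targets. PARP9 and DTX3L form a complex in which DTX3L, a deltex family protein, is the ubiquitin ligase. PARP10, PARP12 and PARP14 attach single ADP-ribose units to proteins, PARP14 also carries macrodomains that bind ADP-ribose, and PARP12 carries zinc fingers that bind RNA. SAMD9 and SAMD9L are neighbouring paralogues that restrict viral growth and lower protein synthesis.

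The core of the response element was searched in promoters, as GAAA, any 2 bases and GAAA, on both strands. The RefSeq windows on GRCh38.p14 run from 250 bases before the annotated start site to 50 bases from it on, and 6 of the 7 genes had at least 1 window, all but PARP10. The core was found in 5 of the 6, namely PARP9, DTX3L, PARP12, PARP14 and SAMD9. It was found in 3.57% of all 35116 windows, and in 4.38% of 27305 genes with any window counted. The stretches around the matches are shown because they hold the best match to the core in each gene, with the matched bases in capitals and 25 bases on each side. PARP9 and DTX3L share 1 stretch, which lies across the RefSeq start site of DTX3L and upstream of the nearer of the 2 RefSeq start sites of PARP9, at chr3:122564307-122564366 (+). The others lie at chr3:122680785-122680844 (+) for PARP14, chr7:140062927-140062986 (+) for PARP12, chr7:93118081-93118140 (-) for SAMD9 and chr7:93148399-93148458 (-) for SAMD9L.
DTX3L and PARP9: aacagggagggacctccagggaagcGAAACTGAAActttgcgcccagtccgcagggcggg
PARP14: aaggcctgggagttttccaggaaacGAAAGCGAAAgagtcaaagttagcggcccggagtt
PARP12: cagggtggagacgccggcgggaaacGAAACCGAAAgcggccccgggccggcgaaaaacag
SAMD9: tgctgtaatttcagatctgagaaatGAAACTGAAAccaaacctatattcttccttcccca
SAMD9L: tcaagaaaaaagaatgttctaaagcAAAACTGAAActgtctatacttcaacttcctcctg

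SAMD9L had no exact match, and its best match, shown above, differed by G1A, with positions counted from the first base of the core. With 1 mismatch allowed, 33.0% of all windows matched, so that match is common. Counted along the gene from the start site at 0, the most upstream base of the core lay at -6 in DTX3L, -10 in PARP12, -29 in PARP14, -41 in PARP9 and -136 in SAMD9. In PARP9 and PARP12 the core lies on the strand opposite the gene. The annotated RefSeq start sites of PARP9 and DTX3L next to the shared core are 38 bases apart on opposite strands, and a more distant PARP9 window, whose start site is 446 bases from that of DTX3L, held no exact core. Of the other PARP family genes, 0 of 11 with a window held an exact core, against 11 of 14 canonical interferon-stimulated genes such as IFIT1 and ISG15. The gamma-activated site, an element of the interferon-gamma response searched as TTCNNNGAA, was found in PARP14 alone, 1 of the 6 genes, and in 7.66% of all windows. A match is a description of the letters and not a bound site. PARP12, with an exact core, had the smallest change of the 7 in si-hnRNPK and SAMD9L, without one, the second largest, as given below.

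The libraries held 54301152 to 70232674 reads on listed genes, at which 3 reads correspond to 0.0427 to 0.0552 CPM (each gene's reads as a rate of the library total, which makes libraries of unequal depth comparable). HNRNPK was at 783.1 CPM in control and 187.8 CPM in si-hnRNPK, and PTBP1 was at 280.0 CPM in control and 89.7 CPM in si-PTBP1. The level of lncRNA-LBCS is not reported here, so whether it fell in its own library was not tested. Each of the 4 mesenchymal markers was at 1 CPM or more in every library, with VIM at 1417 to 2343 CPM, and 1 of them, FN1, was up-regulated in si-hnRNPK (57.2 to 188.7 CPM) and in si-PTBP1 (211.1 CPM). Of 13 epithelial and urothelial markers, 11 were listed and 4 or 5 reached 1 CPM in a library. Among them the keratins KRT8 and KRT18 were at 63.0 to 121.4 CPM, KRT7 at 1.42 to 3.03 CPM and PPARG at 2.33 to 5.19 CPM, and TP63 was at 0.342 CPM in control, 2.50 CPM in si-hnRNPK and 2.37 CPM in si-PTBP1. The urothelial markers GATA3, UPK1B and UPK2 were at 0.321 CPM or less in every library. Of 14 white blood cell markers 5 were listed, with a summed level of 0.826 to 3.46 CPM. Of 7 endothelial and fibroblast markers 5 were listed, with a summed level of 0.897 to 4.16 CPM, the highest in si-PTBP1, where COL1A1 was called (0.407 to 2.25 CPM). The part of other cell types in the results was not tested. In RNA of a whole culture, fewer expressing cells and less RNA per cell cannot be told apart.

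Changes are differences in log2(CPM + 1) from control siRNA, on which the change of a gene with a low level comes out too small. A gene was called up- or down-regulated at a difference of at least 1, if it reached 1 CPM in at least one of both libraries. Ranges in brackets are 95% exact counting intervals, which cover counting error only. In si-hnRNPK, 6 of the 7 genes were up-regulated and 0 were down-regulated, and the summed level of the 7 was 1216 CPM as compared with 327 CPM in control. Over all 13672 genes past the filter, 3.55% were up-regulated and 3.93% were down-regulated. The median change of the 7 was 2.04, beside -0.11 over all genes. Since the genes were chosen on this contrast, nothing is read from that difference. The called gene nearest to the threshold was PARP14, at 1.49, and PARP12, at 0.88, was the gene not called.

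**Figure D1:**
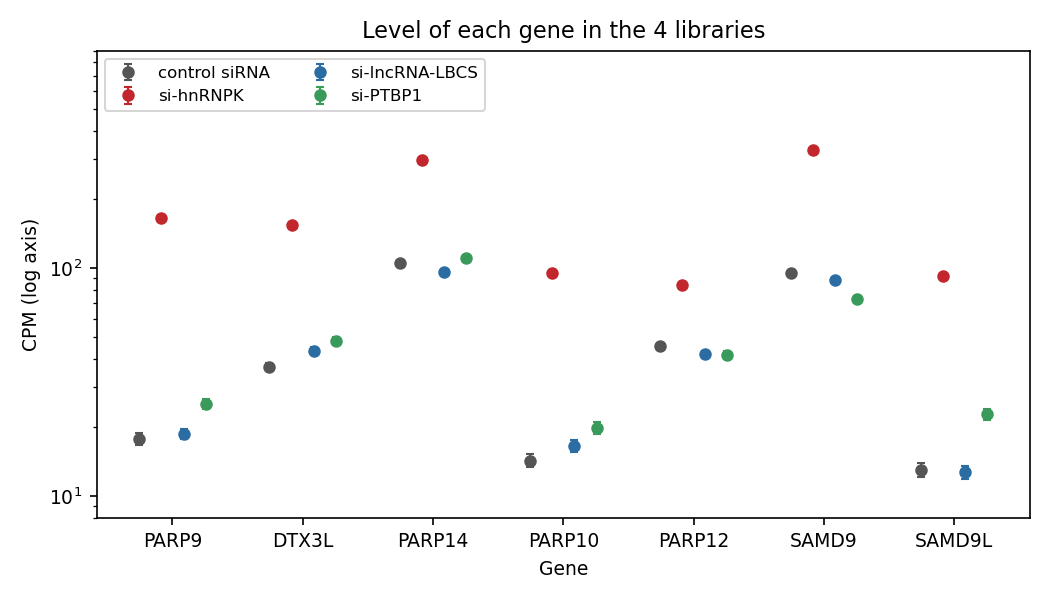
Level of each gene in CPM on a log axis in the control siRNA, si-hnRNPK, si-lncRNA-LBCS and si-PTBP1 libraries, 1 point per library with its 95% counting interval. The si-hnRNPK point is the highest for each of the 7 genes, from 84.0 CPM for PARP12 to 328.3 CPM for SAMD9.

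PARP9 was at 17.8 CPM in control, 166.0 in si-hnRNPK, 18.7 in si-lncRNA-LBCS and 25.4 in si-PTBP1. Its change in si-hnRNPK was 3.15 (3.06 to 3.24), a ratio of 9.32, and ranked 18 from the top of the 13672 genes. The si-hnRNPK library stood far above the others, and the difference between si-lncRNA-LBCS and control (0.07, -0.04 to 0.18) was within counting error. DTX3L, the ligase partner, was at 36.8 CPM in control, 154.6 in si-hnRNPK, 43.4 in si-lncRNA-LBCS and 48.0 in si-PTBP1. Its change in si-hnRNPK was 2.04 (1.98 to 2.11), a ratio of 4.20. All 3 knockdown libraries were above control for DTX3L, si-hnRNPK by far the most.

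PARP9 took 32.6% (31.0 to 34.2) of the reads of the PARP9 and DTX3L pair in control and 51.8% (51.0 to 52.5) in si-hnRNPK. The share was 30.1% (28.8 to 31.5) in si-lncRNA-LBCS and 34.6% (33.1 to 36.1) in si-PTBP1. Thus the pair did not change in parallel. PARP9, with fewer reads than DTX3L in the other 3 libraries, had slightly more reads in si-hnRNPK, beyond counting error. Per kilobase of exon, PARP9 stayed below DTX3L in every library. That ratio was 0.318 in control, 0.705 in si-hnRNPK, 0.283 in si-lncRNA-LBCS and 0.347 in si-PTBP1. PARP9 (ENSG00000138496) lies at chr3:122527924-122564577 on the minus strand and DTX3L (ENSG00000163840) at chr3:122564238-122575203 on the plus strand (GENCODE release 29, GRCh38), so both annotated spans take in the shared stretch. Their exons share 217 bases on opposite strands, which is 2.43% of the PARP9 and 3.70% of the DTX3L exon bases. Whether the counting used strand is not given in the sources used here, so reads of those bases cannot be assigned to one gene.

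PARP14, on the same chromosome at chr3:122680618-122730840 (+, ENSG00000173193), was at 105.0 CPM in control, 296.7 in si-hnRNPK, 95.8 in si-lncRNA-LBCS and 110.2 in si-PTBP1. Its change in si-hnRNPK was 1.49 (1.45 to 1.53), a ratio of 2.83. The other 3 libraries lay close together. Per kilobase of exon, PARP14 was at 10.0 CPM in control and DTX3L at 6.27 CPM, and in si-hnRNPK they were at 28.3 and 26.3 CPM, so the gap between both levels narrowed in ratio from 1.60 to 1.07.

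PARP10 was at 14.3 CPM in control, 94.8 in si-hnRNPK, 16.6 in si-lncRNA-LBCS and 19.8 in si-PTBP1. Its change in si-hnRNPK was 2.65 (2.55 to 2.75), a ratio of 6.64, and ranked 32 from the top. PARP10 (ENSG00000178685) lies at chr8:143977153-144012772 on the minus strand, and 324 of its exon bases (5.37%) overlap GRINA on the other strand. GRINA was at 96.9 CPM in control and 144.4 CPM in si-hnRNPK, and the part of its reads in the PARP10 value was not tested.

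PARP12 was at 45.3 CPM in control, 84.0 in si-hnRNPK, 41.8 in si-lncRNA-LBCS and 41.6 in si-PTBP1. Its change in si-hnRNPK was 0.88 (0.81 to 0.95), a ratio of 1.86, and was the smallest of the 7. The si-hnRNPK library was again the highest, but the difference did not reach the threshold. PARP12 (ENSG00000059378) lies at chr7:140023744-140063721 on the minus strand.

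SAMD9 was at 94.8 CPM in control, 328.3 in si-hnRNPK, 88.4 in si-lncRNA-LBCS and 73.3 in si-PTBP1. Its change in si-hnRNPK was 1.78 (1.74 to 1.82), a ratio of 3.46. SAMD9L was at 13.0 CPM in control, 91.9 in si-hnRNPK, 12.7 in si-lncRNA-LBCS and 22.8 in si-PTBP1, with a change in si-hnRNPK of 2.73 (2.62 to 2.84), a ratio of 7.07. The paralogue with fewer reads thus had the larger ratio, and si-PTBP1 stood below control for SAMD9 and above control for SAMD9L. SAMD9 took 87.9% (87.1 to 88.7) of the reads of both paralogues in control, 78.1% (77.6 to 78.7) in si-hnRNPK, 87.4% (86.6 to 88.2) in si-lncRNA-LBCS and 76.2% (75.1 to 77.4) in si-PTBP1. SAMD9 (ENSG00000205413) lies at chr7:93099513-93118023 and SAMD9L (ENSG00000177409) at chr7:93130055-93148369, both on the minus strand with 12031 bases between them. How reads that match both paralogues were counted is not given in the sources used here.

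**Figure D2:**
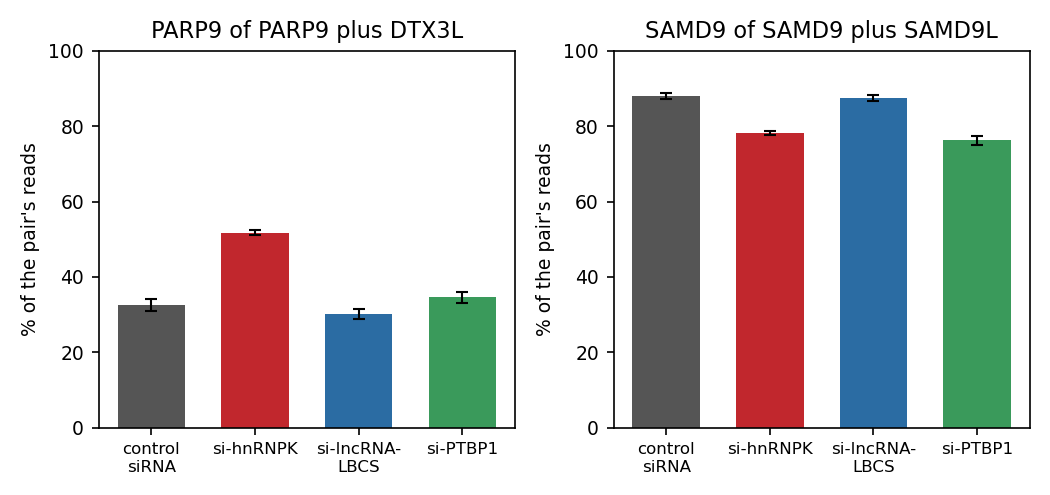
Share in percent of the reads of 2 adjacent genes that fell on the first, with 95% exact binomial intervals, in the 4 libraries. PARP9 holds 51.8% of its pair in si-hnRNPK and 30.1 to 34.6% elsewhere, and SAMD9 holds 87.4 to 87.9% in control and si-lncRNA-LBCS but 76.2 to 78.1% in si-hnRNPK and si-PTBP1.

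The 3 genes with the lowest CPM in control, SAMD9L, PARP10 and PARP9, had the 3 largest ratios in si-hnRNPK. The control level is part of both quantities. Per kilobase of exon, the order in control was SAMD9 (13.8 CPM), PARP14 (10.0), PARP12 (7.20), DTX3L (6.27), PARP10 (2.37), PARP9 (1.99) and SAMD9L (1.82), and the last 2 did not differ beyond counting error. In si-hnRNPK the order was SAMD9 (47.9), PARP14 (28.3), DTX3L (26.3), PARP9 (18.6), PARP10 (15.7), PARP12 (13.4) and SAMD9L (12.9), and again the last 2 did not differ beyond counting error. SAMD9 therefore had the highest level in both libraries, whereas PARP12 had a higher level than DTX3L, PARP10 and PARP9 in control and a lower level than each of them in si-hnRNPK. SAMD9 also had the highest value in si-lncRNA-LBCS (12.9) and in si-PTBP1 (10.7), but in the latter it did not differ from PARP14 (10.5) beyond counting error.

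The other knockdowns can also serve as the reference. As compared with si-lncRNA-LBCS, the ratio of the si-hnRNPK level was 8.88 for PARP9, 7.23 for SAMD9L, 5.72 for PARP10, 3.71 for SAMD9, 3.56 for DTX3L, 3.10 for PARP14 and 2.01 for PARP12. As compared with si-PTBP1, the ratio was 6.54 for PARP9, 4.79 for PARP10, 4.48 for SAMD9, 4.02 for SAMD9L, 3.22 for DTX3L, 2.69 for PARP14 and 2.02 for PARP12. PARP9 had the highest and PARP12 the lowest ratio against each of the 3 other libraries.

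The other knockdowns shared the control library with si-hnRNPK. In si-lncRNA-LBCS, 0 of the 7 genes were up-regulated and 0 were down-regulated, beside 0.378% and 1.01% of 13492 genes. The changes were 0.23 (0.15 to 0.31) for DTX3L, 0.20 (0.08 to 0.32) for PARP10, 0.07 for PARP9, -0.03 for SAMD9L, -0.10 for SAMD9, -0.11 for PARP12 and -0.13 (-0.18 to -0.08) for PARP14, with a median of -0.03 beside -0.01 over all genes. The counting interval held 0 for PARP9 and SAMD9L.

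In si-PTBP1, 0 of the 7 were up-regulated and 0 were down-regulated, beside 2.92% and 0.613% of 13855 genes. The changes were 0.77 (0.65 to 0.89) for SAMD9L, 0.49 for PARP9, 0.45 for PARP10, 0.37 for DTX3L, 0.07 for PARP14, -0.12 for PARP12 and -0.37 (-0.42 to -0.31) for SAMD9. Their median was 0.37, beside 0.12 over all genes. The direction of PARP14 depended on the scaling, with -0.06 after median-of-ratios scaling, while the other 6 kept theirs. SAMD9 and SAMD9L thus lay on opposite sides of control, each beyond counting error.

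**Figure D3:**
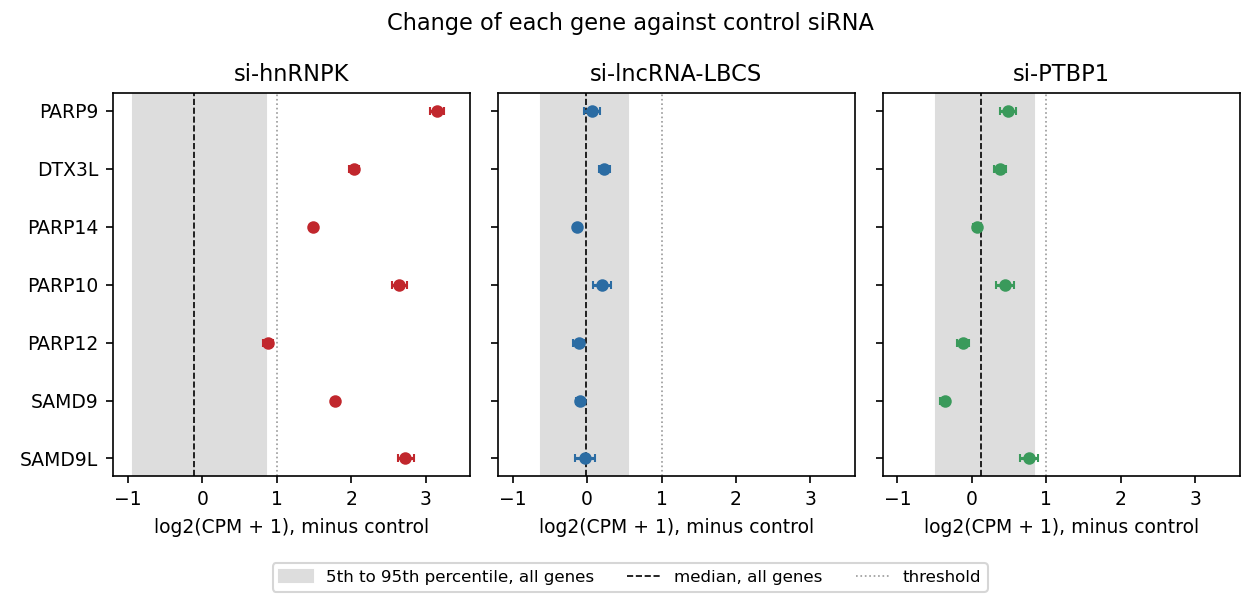
Difference in log2(CPM + 1) from control siRNA for each gene in 3 knockdown libraries, points with 95% counting intervals, the median and the 5th to 95th percentile of all genes past the filter, and the threshold of 1. In si-hnRNPK 6 of the 7 points lie above the threshold, and in the other knockdowns 0 do.

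Other genes of the PARP and deltex families, and genes of ADP-ribose removal and NAD synthesis, were compared from lists written with these results known. Of the 13 other PARP family genes, 12 passed the filter, and 0 were up-regulated and 0 down-regulated in si-hnRNPK. Their median change was 0.03, and they ran from -0.89 for PARP2, a DNA damage sensor (25.3 to 13.2 CPM), to 0.49 for ZC3HAV1, an antiviral zinc finger protein (123.4 to 173.6 CPM). PARP1, the main DNA damage PARP, was at 151.0 CPM in control and 92.6 CPM in si-hnRNPK. Among other deltex genes, 3 of 4 passed the filter and 0 were called, with DTX3 at 50.2 CPM in control and 68.3 CPM in si-hnRNPK. Among genes that remove ADP-ribose, 8 of 10 passed the filter and 0 were called, with changes from -0.53 for ENPP1 to 0.47 for MACROD1, a macrodomain hydrolase. Of 7 genes that make NAD, the substrate of PARP enzymes, 4 passed the filter and 0 were called, and NAMPT was at 115.1 CPM in control and 129.3 CPM in si-hnRNPK. Over all genes past the filter, 3.55% were up-regulated and 3.93% down-regulated. At those shares few or no calls would fall in lists this short, so a count of 0 does not set them apart.

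Genes of the interferon pathway in si-hnRNPK were also taken from a list written with these results known. Of 17 receptors, kinases, transcription factors and regulators, 16 passed the filter. Of these, 5 were up-regulated, 0 were down-regulated and 11 were neither, beside 3.55% up-regulated and 3.93% down-regulated of 13672 genes. Their median was 0.29, beside -0.11 over all genes. STAT2 went from 36.7 to 134.0 CPM (1.84) and IRF9, which binds the response element, from 2.26 to 6.72 CPM (1.24). IRF7, which drives interferon transcription, went from 5.30 to 82.1 CPM (3.72), USP18, which removes ISG15 and dampens receptor signalling, from 9.78 to 68.6 CPM (2.69), and IRF1 from 29.2 to 83.6 CPM (1.49). The receptor chain IFNAR1 was at 32.0 CPM in control and 27.6 CPM in si-hnRNPK, and the kinases JAK1, JAK2 and TYK2 did not reach the threshold. Of the interferon genes themselves, 0 of 10 passed the filter, and IFNB1 had 1 read in control, 29 reads in si-hnRNPK and 1 read in si-PTBP1.

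Canonical interferon-stimulated genes had a higher median change than the 7 in si-hnRNPK. All 16 passed the filter, 14 were up-regulated and 0 were down-regulated, beside 3.55% and 3.93% of 13672 genes. Their median was 3.42. Only 9 of the 16 were at 1 CPM or more in control. IFI44L, MX1, OAS2, RSAD2, CMPK2, XAF1 and EPSTI1, at 0.635 CPM or less in control, passed the filter through si-hnRNPK alone. They could therefore only be higher in si-hnRNPK. They are part of that median, and all of them but MX1 are among the 14 called. IFIT1, which binds foreign RNA caps, went from 19.6 to 466.3 CPM (4.50). The changes of the other called genes were 4.45 for IFI6, 4.17 for CMPK2, 4.11 for OAS1, 4.07 for ISG15, 3.97 for XAF1, 3.52 for OAS2, 3.51 for RSAD2, 3.33 for IFI44L, 2.84 for IFIT2, 2.77 for IFI44, 2.70 for IFIT3, 2.10 for EPSTI1 and 1.29 for OAS3. HERC5, the ISG15 ligase, at 0.71, and MX1, a dynamin-like antiviral GTPase, at 0.94 were the 2 that were not called. After median-of-ratios scaling 15 were called. MX1, at a low level, had 25 reads in control and 92 in si-hnRNPK, a ratio of 4.16 (2.65 to 6.76). The ratio of HERC5 was 1.68 (1.55 to 1.82). In si-lncRNA-LBCS, 9 of the 16 passed the filter, IFI6 was up-regulated (1.17), and IFIT2 (-1.81) and IFIT3 (-1.49) were down-regulated. In si-PTBP1, 9 of the 16 passed the filter, 0 were up-regulated and 2 were down-regulated, with a median of -0.63. IFIT2 and IFIT3 were the 2, at -1.70 and -1.53, and 2 of the 9, IFI6 (0.42) and OAS1 (0.24), were above control. Of the 7 genes, 5 were above control in that library and 2, PARP12 and SAMD9, below it. The median over all genes there was 0.12, and PARP14, 1 of the 5, was at 0.07 (-0.06 after median-of-ratios scaling).

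**Figure D4:**
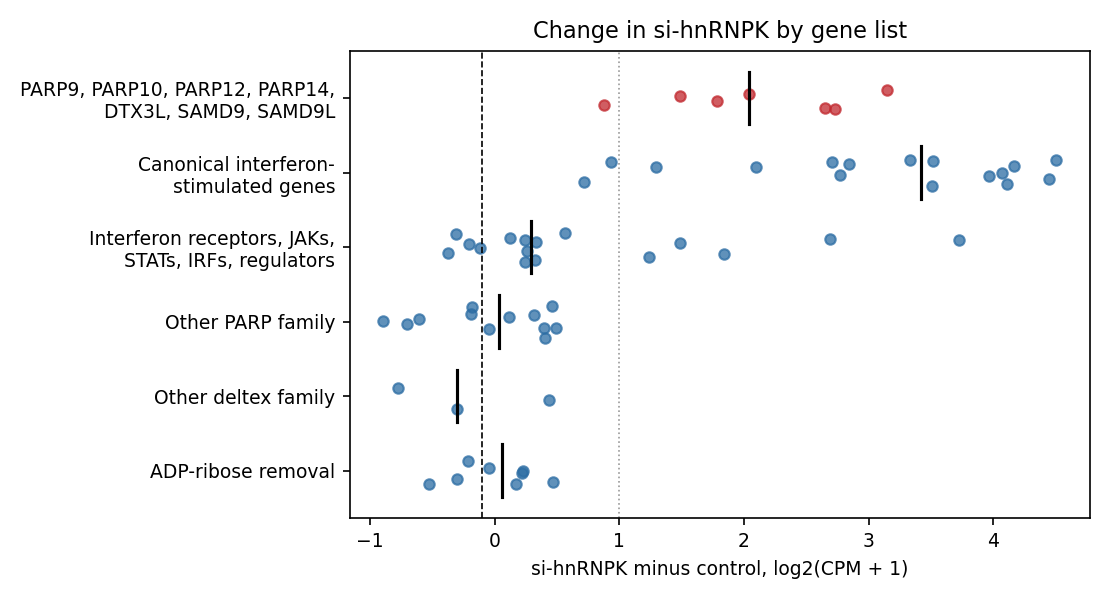
Difference in log2(CPM + 1) between si-hnRNPK and control for the 7 genes and for 5 lists, 1 point per gene past the filter, with the median of each list as a bar, the median of all genes dashed and the threshold of 1 dotted. The other PARP family genes lie between -0.89 and 0.49, and the 7 genes between 0.88 and 3.15.

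Chromosomal neighbours were taken as the 3 nearest protein-coding genes on each side of each of the 7, which gave 25 genes. Of these, 18 passed the filter, 1 was up-regulated and 0 were down-regulated in si-hnRNPK, with a median of -0.17. The shares over all genes were 3.55% and 3.93%, at which few calls would fall in a list this short. KPNA1, beside PARP9, was at -0.15 and HSPBAP1, which lies 9163 bases from PARP14, at 0.00. CDK6, the nearest neighbour of SAMD9 on one side, had the lowest change, at -0.96. NRBP2, near PARP10, was the gene called, at 1.35, and it was also at 1.20 in si-PTBP1, where PARP10 was at 0.45. PARP15, between DTX3L and PARP14, has no value used here.

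**Figure D5:**
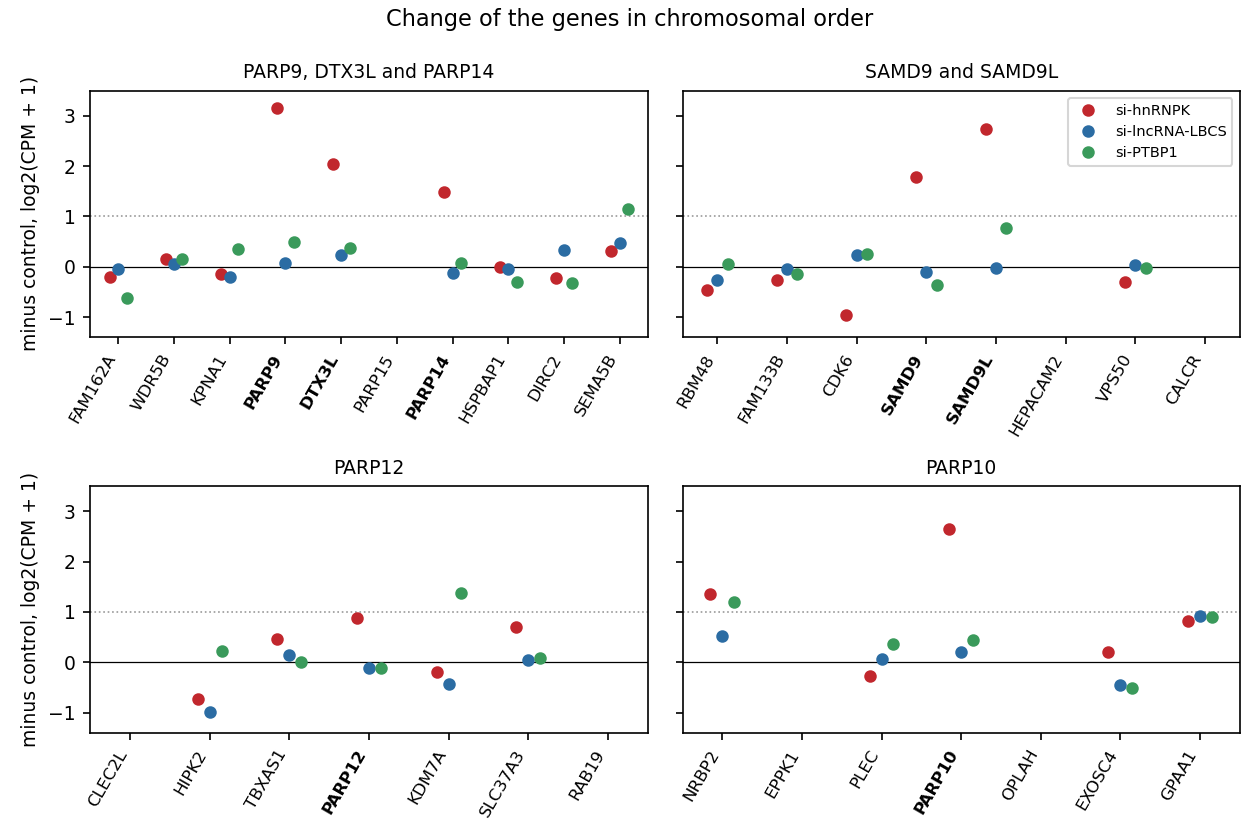
Difference in log2(CPM + 1) from control siRNA in 3 knockdown libraries for the 7 genes (bold names) and their neighbours, placed in chromosomal order and not to scale, with the threshold dotted. In si-hnRNPK the neighbours lie between -0.96 and 1.35, and genes without points had no value past the filter.

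The genes with the most similar pattern were taken from 9438 genes at 10 CPM or more in their highest library, by the distance of their 3 changes from the median changes of the 7. The 5 nearest were CCN2, a matricellular growth factor gene, TAP1, a peptide transporter of antigen presentation, SLC16A9, IFI35 and UBE2L6, the conjugating enzyme for ISG15. TAP1 was at 24.6 CPM in control, 114.0 in si-hnRNPK, 23.2 in si-lncRNA-LBCS and 31.1 in si-PTBP1. By 4 levels centred on their mean, USP18, BATF2 and IRF7 were nearest to PARP9, and CD274, DDX60 and ATF3 were nearest to DTX3L. These rankings rest on 3 or 4 values per gene that share the control library.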

How the data were processed

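RNA was extracted from UM-UC-3 cells and sequenced as 100-base paired-end reads, with 1 library for each of 4 conditions. The authors deposited CPM per Ensembl gene for each library. The submitters' processing notes name the build hg19, while the aligner, counter and annotation are not given in the sources used here. Values were whole multiples of 1 read for 100% of genes with reads (tolerance 0.05 reads), so reads were recovered, and genes holding a placeholder were set to 0. Symbols matched 23982 of 25719 identifiers in the control table. Positions came from GENCODE release 29, matched by identifier.

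Changes used a pseudocount of 1 CPM, a filter of 1 CPM and a threshold of 1 (2-fold). Some list genes are not reported here. The members and lists were chosen with earlier results of these data known. Named were the 7 genes, HNRNPK and PTBP1, list genes past the threshold or on which a result turned, and the nearest patterns. Other list genes, such as VIM, PARP1, DTX3 and NAMPT, and GRINA and the neighbours were named as examples after their values were seen.

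An exact binomial test of the recovered reads, with Benjamini-Hochberg q of at most 0.05, passed 10894 of 13672 genes in si-hnRNPK, 9513 of 13492 in si-lncRNA-LBCS and 10222 of 13855 in si-PTBP1. It compares libraries, not conditions. Other alternatives changed the pseudocount, filter, threshold, scaling or reference. Scripts were tested on simulated data. The calculations ran in Python 3.11.15 with pandas 2.3.3, numpy 2.4.6 and scipy 1.17.1, and the plots in matplotlib 3.10.9.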

Additional observations from a re-analysis of the deposited data

How the results depend on the processing

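In si-hnRNPK, 6 genes were up-regulated under each alternative but the 1.5-fold threshold, under which all 7 were, and each change stayed above 0. With a pseudocount of 0.1, 790 genes were up-regulated and 995 down-regulated in si-hnRNPK, 165 and 353 in si-lncRNA-LBCS, and 793 and 173 in si-PTBP1. With a 1.5-fold threshold these counts were 1352 and 2165, 559 and 774, and 1673 and 432, and 1 of the 7, SAMD9L, was up-regulated in si-PTBP1. Median-of-ratios scaling moved the split of up and down calls from 486 and 537 to 610 and 374 in si-hnRNPK, and from 404 and 85 to 256 and 132 in si-PTBP1. The median change of the 7 was then 2.15 and 0.25. The scaling factor differed from control by -0.11 in si-hnRNPK and 0.13 in si-PTBP1. Against the geometric mean of the other 3 libraries, up-regulated genes were 317, 6 and 234, and the median of the 7 was 1.94, -0.65 and -0.38. Without the control, against the other knockdowns, 316 were up-regulated in si-hnRNPK and the medians were -0.98 in si-lncRNA-LBCS and -0.76 in si-PTBP1. Those references contain si-hnRNPK, in which the 7 genes are high. The binomial test added to the threshold left each count as it was. No paired analysis was possible because each condition had 1 library, and no replicate could be left out. Depth did not limit the 7 genes, each with at least 798 reads in every library. The interferon genes had at most 45 reads and wide counting intervals, and 0 of 10 passed the filter of 1 CPM.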
